A study of Homo sapiens with 8 samples.

Results

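Intermediate filaments are the ropelike cytoskeletal polymers that give a cell its resistance to stretch, and their composition marks cell types. In epithelia they are obligate heteropolymers of type I (acidic) and type II (basic) keratins, as KRT8 with KRT18 in simple epithelia such as the renal tubule, whereas vimentin is the filament protein of mesenchymal cells and is also carried by clear cell renal cell carcinomas (RCC). VHL, the gene lost in most of these tumours, encodes the subunit through which a ubiquitin ligase recognizes HIFα and has it degraded when oxygen is present.

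The 8 genes described here are the type II keratins KRT7, KRT8 and KRT80, the type I keratins KRT10, KRT18 and KRT19, vimentin (VIM) and nestin (NES). They are given by symbol, as a set chosen with earlier results of these data known, and the rule itself uses no change between groups. Each was represented by the transcript cluster (the set of probes for 1 transcribed locus) that carries its symbol alone and has the highest mean signal, so that they are 8 of 18417 genes and 8 of 33297 transcript clusters. All 8 were measured, and no filter on low values was applied.

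All RNA came from the human RCC line 786-O, which lacks functional VHL. Stable transfectants with a VHL expression vector, kept as bulk cultures (VHL+), were compared with untransfected cells (VHL-), each after 24 h of hypoxia or normoxia. There were 2 biological replicates in each of the 4 groups, VHL+ hypoxia, VHL+ normoxia, VHL- hypoxia and VHL- normoxia, and thus 8 gene arrays. Since VHL- cells carry no vector, effects of transfection and selection cannot be told apart from those of VHL. Values are log2 signals after Robust Multichip Average (RMA), on which a difference of 1 is a doubling of signal. A transcript was called at an adjusted p under 0.05 (limma over all clusters, Benjamini-Hochberg adjustment), and values after ± are SD.

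The arrays had medians between 6.60 and 6.91, and the highest and the lowest were those of VHL+ hypoxia replicate 1 and VHL- hypoxia replicate 1. Over all clusters the median change in VHL+ vs. VHL- cells was 0.16 under hypoxia and -0.04 under normoxia. VHL itself was called higher in VHL+ cells, by 0.75 under hypoxia (adjusted p = 0.00211) and by 0.52 under normoxia (adjusted p = 0.0398). These calls were lost without either VHL+ hypoxia array, and under normoxia without any 1 of the arrays other than those of VHL- hypoxia. Over both oxygen conditions, in a fit with both factors, VHL was higher by 0.63 (limma adjusted p = 0.000109), a call kept without any 1 array. Of 9 renal markers, PAX8, PAX2, LHX1 and CDH6 exceeded the median signal of each of the 8 arrays. Another 2 were under it on all 8 arrays, and the rest exceeded it on some arrays only. Markers of leukocytes (4 of 5), endothelium (5 of 5), fibroblasts (4 of 5) and stratified squamous epithelium (4 of 5) were under it on all 8 arrays, the only ones over it on every array being CD68 and KRT14. The fibroblast marker THY1 was called higher in VHL+ cells under hypoxia (0.44, adjusted p = 0.045). The mean signal of the 9 renal markers was 7.63 to 7.89 on VHL+ arrays and 8.03 to 8.24 on VHL- arrays, but without ANPEP, left out after its values were seen, it was 7.79 to 8.03 on VHL+ arrays and 7.84 to 8.07 on VHL- arrays, which overlap. Over both oxygen conditions 3 of the 9 were called higher and 3 lower, with a median log2 fold change of 0.04. Of all clusters 10.6% were called higher and 3.72% lower in this comparison.

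Sequences are shown where the values below touch them. The first is the 300-base window that runs across the VIM start site (RefSeq, GRCh38.p14, chr10:17227991-17228290, + strand), since VIM has the highest signal of the 8 genes, and hypoxia acts through HIF, which binds ACGTG or GCGTG. Capitals mark ACGTG on the opposite strand, at position 259 from the 5′ end.
VIM promoter: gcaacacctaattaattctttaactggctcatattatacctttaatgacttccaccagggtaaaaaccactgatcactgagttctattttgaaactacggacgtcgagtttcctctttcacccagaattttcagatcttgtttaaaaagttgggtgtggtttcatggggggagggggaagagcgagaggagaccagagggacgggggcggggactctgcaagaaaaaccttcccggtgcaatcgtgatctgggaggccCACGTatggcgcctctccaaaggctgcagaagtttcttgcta
Both motifs were searched on both strands in windows of 300 bases. Entries were found for 4 of the 8 genes, KRT8, KRT10, VIM and NES, and VIM had the only match. Of all 35116 promoters of this length, 21.4% held ACGTG, 36.5% GCGTG and 48.4% at least 1 of them, so a match is a description and marks no binding site. The second set is the hairpin and mature form of MIR492 (RefSeq, GRCh38.p14, chr12:94834398-94834513, + strand). The array annotation lists this microRNA together with KRT19P2, a processed copy of KRT19, on a cluster whose signal is set beside that of KRT19 below. In the hairpin, capitals mark the mature microRNA, and in the mature form its seed.
MIR492 hairpin: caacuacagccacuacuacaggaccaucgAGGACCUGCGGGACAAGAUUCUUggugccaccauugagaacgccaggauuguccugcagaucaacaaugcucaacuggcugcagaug
hsa-miR-492: aGGACCUGcgggacaagauucuu

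In VHL+ vs. VHL- cells KRT19 fell and KRT80 rose, and the other 6 genes passed the test under neither oxygen condition. Under hypoxia 2 of the 8 genes were called, 1 in each direction, where 11.6% of all clusters were called (10.3% higher and 1.31% lower). Under normoxia KRT19 alone was called, where 4.77% of all clusters were (2.07% higher and 2.69% lower). Over both oxygen conditions, in a fit with both factors, KRT19 and KRT80 were called, against 14.3% of all clusters (10.6% higher and 3.72% lower). The median log2 fold change of the 8 genes, 0.11 under hypoxia and -0.03 under normoxia, lay near that of all clusters. The plot of levels by array shows the KRT19 step and the smaller KRT80 step beside 6 nearly flat genes.

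**Figure D1:**
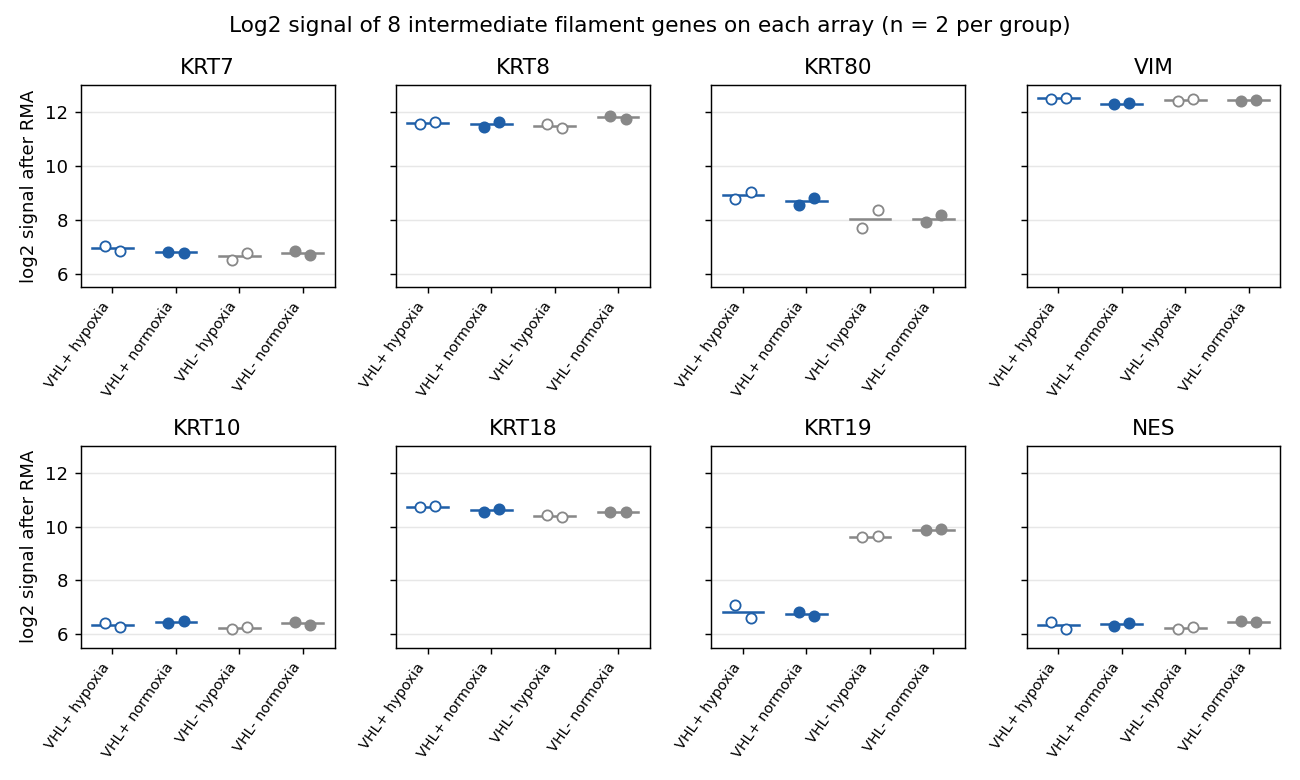
Log2 signal of the 8 genes (vertical axis, the same for all panels) on each array of VHL+ hypoxia, VHL+ normoxia, VHL- hypoxia and VHL- normoxia cells; open circles are hypoxia, filled circles normoxia, blue VHL+, grey VHL-, and lines are the means of 2 replicates. KRT19 lies at 6.61 to 7.08 on VHL+ arrays and at 9.61 to 9.89 on VHL- arrays, while VIM spans 0.23 over all 8 arrays.

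KRT19 is the smallest keratin and an exception in its family, as it nearly lacks the tail domain, and it is a marker of ductal and other simple epithelia. Its log2 signals were 7.08 and 6.61 in VHL+ hypoxia and 6.84 and 6.67 in VHL+ normoxia cells. They were 9.61 and 9.64 in VHL- hypoxia and 9.86 and 9.89 in VHL- normoxia cells. Every VHL+ array thus lay more than 2 log2 units below every VHL- array, with means of 6.85 ± 0.33 in VHL+ hypoxia, 6.76 ± 0.12 in VHL+ normoxia, 9.62 ± 0.02 in VHL- hypoxia and 9.88 ± 0.02 in VHL- normoxia cells (n = 2 each). On 2 of the 4 VHL+ arrays KRT19 lay below the median of all clusters, so that its remaining signal is near that of the median cluster. On VHL- arrays it lay as high as the 91.5th percentile.

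The log2 fold change of KRT19 was -2.78 under hypoxia (SE 0.15, adjusted p = 2.435e-09), a 6.85-fold lower signal in VHL+ cells. Under normoxia it was -3.12 (SE 0.15, adjusted p = 3.62e-10), or 8.70-fold lower. Over both conditions it was -2.95 (95% interval -3.19 to -2.71), the 7th lowest value among 18417 genes. The fall was kept after quantile normalization (adjusted p = 0.000294 under hypoxia and 0.000227 under normoxia) and without any 1 array, where the highest adjusted p was 0.000607. With the one-way test of the study's methods, run on the 2 groups alone, the unadjusted p under hypoxia was 0.00703, above the threshold of 0.005 used there. After Benjamini-Hochberg adjustment that test gave 0.407 under hypoxia and 0.509 under normoxia.

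KRT80 is a type II keratin that lies next to KRT7 at the edge of the type II gene cluster and is made in many epithelia. Its log2 signals were 8.77 and 9.04 in VHL+ hypoxia and 8.56 and 8.82 in VHL+ normoxia cells, against 7.68 and 8.35 in VHL- hypoxia and 7.91 and 8.18 in VHL- normoxia cells. All 4 VHL+ arrays lay above all 4 VHL- arrays, and the replicates of VHL- hypoxia cells were the most unlike (8.01 ± 0.48). Over both oxygen conditions its log2 fold change was 0.77 (SE 0.13, adjusted p = 0.000105), a 1.71-fold higher signal and the 447th highest value of 18417 genes. Under hypoxia it was 0.90 (SE 0.19, adjusted p = 0.0045), or 0.74 above the median of all clusters. Under normoxia it was 0.65 (SE 0.19, adjusted p = 0.0553), which missed the threshold but passed with trend and robust estimation (0.00896) and when VHL+ normoxia replicate 1, VHL- normoxia replicate 2 or either VHL- hypoxia array was left out (0.00142 to 0.00886).

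The KRT80 call was less firm than that of KRT19. Under hypoxia it was lost after quantile normalization (0.64, adjusted p = 0.106) and after median centring (0.72, adjusted p = 0.142). It was also lost without VHL+ hypoxia replicate 1 (adjusted p = 0.143), VHL+ hypoxia replicate 2 (adjusted p = 0.138) or VHL- hypoxia replicate 1 (0.56, adjusted p = 0.0531). Over both conditions it was kept after quantile normalization (0.65, adjusted p = 0.00869) and without any 1 array (highest adjusted p = 0.0313).

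KRT8 and KRT18 are the obligate partners of simple epithelia and were, with VIM, the brightest of the 8 genes relative to their own arrays. KRT8 had log2 signals of 11.54 and 11.62 in VHL+ hypoxia and 11.45 and 11.62 in VHL+ normoxia cells, against 11.55 and 11.41 in VHL- hypoxia and 11.85 and 11.73 in VHL- normoxia cells. KRT18 had 10.74 and 10.75 in VHL+ hypoxia and 10.55 and 10.66 in VHL+ normoxia cells, against 10.45 and 10.35 in VHL- hypoxia and 10.54 and 10.55 in VHL- normoxia cells. The VHL+ hypoxia arrays lay above the VHL- hypoxia arrays for KRT18, and the VHL+ normoxia arrays below the VHL- normoxia arrays for KRT8, but neither passed. For KRT18 under hypoxia the log2 fold change was 0.34 (95% interval 0.07 to 0.62, adjusted p = 0.108), of which 0.19 exceeded the median of all clusters. For KRT8 it was 0.10 under hypoxia (adjusted p = 0.648) and -0.26 under normoxia (95% interval -0.54 to 0.03, adjusted p = 0.467).

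VIM, the mesenchymal filament gene, lay between the 99.1st and the 99.3rd percentile of its array in every sample. Its log2 signals were 12.48 and 12.53 in VHL+ hypoxia, 12.29 and 12.33 in VHL+ normoxia, 12.41 and 12.47 in VHL- hypoxia and 12.41 and 12.45 in VHL- normoxia cells. The VHL+ arrays lay just above the VHL- arrays under hypoxia and below them under normoxia, and neither difference passed, with log2 fold changes of 0.06 under hypoxia (95% interval -0.21 to 0.34, adjusted p = 0.759) and -0.12 under normoxia (adjusted p = 0.984). A vimentin signal near the top of the array thus stood beside a high KRT8 and KRT18 signal in all 4 groups, although signals of different probes give no ratio of transcripts.

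KRT7, the type II keratin of ductal and glandular epithelia, was near the median of each array, at 6.84 to 7.03 in VHL+ hypoxia and 6.78 to 6.81 in VHL+ normoxia cells, against 6.51 to 6.77 in VHL- hypoxia and 6.68 to 6.84 in VHL- normoxia cells. KRT10, a keratin of the suprabasal epidermis, ran from 6.19 to 6.48 over all arrays, and NES, a filament protein of neural progenitors, from 6.20 to 6.49. Both were dimmer than the median cluster of the array in every sample. None of the 3 was called with VHL, and the lowest adjusted p was 0.21, for KRT7 under hypoxia (0.30). In the 4 comparisons between VHL or oxygen groups, the 95% intervals of the signal reached at most 1.51-fold for KRT7 and KRT8, 1.54-fold for KRT18 and 1.38-fold for VIM. For KRT7, near the median of each array, this limit holds for the signal and may not bound a change of the transcript. No such limit is given for KRT10 and NES, whose signals are too dim to bound a change of the transcript.

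For hypoxia vs. normoxia none of the 8 genes passed in either cell type, with limma or with the one-way test at an unadjusted p under 0.005. In VHL+ cells the log2 fold changes ran from -0.10 to 0.21 (lowest adjusted p = 0.912, 0 genes at an unadjusted p under 0.05), where 0.153% of all clusters were called (0.15% higher and 0.003% lower). In VHL- cells they ran from -0.31 to 0.01 (lowest adjusted p = 0.806), where 0.0661% of all clusters were called (0.021% higher and 0.045% lower). Over both cell types the range was -0.14 to 0.10 and none passed (0 genes at an unadjusted p under 0.05), against 0.171% of all clusters (0.111% higher and 0.0601% lower). The median of all clusters was -0.12 in VHL- cells. KRT8 in VHL- cells was the 1 gene at an unadjusted p under 0.05, with 11.55 and 11.41 under hypoxia against 11.85 and 11.73 under normoxia (-0.31). The difference between the hypoxia effects of VHL+ and VHL- cells was 0.08 to 0.36 for the 8 genes, around a median of 0.21 for all clusters, and none passed (lowest adjusted p = 0.651, 0 genes at an unadjusted p under 0.05, against 0.00601% of clusters called). For KRT19 this difference was 0.34 (SE 0.22), so that its fall with VHL under hypoxia and that under normoxia were not shown to differ.

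**Figure D2:**
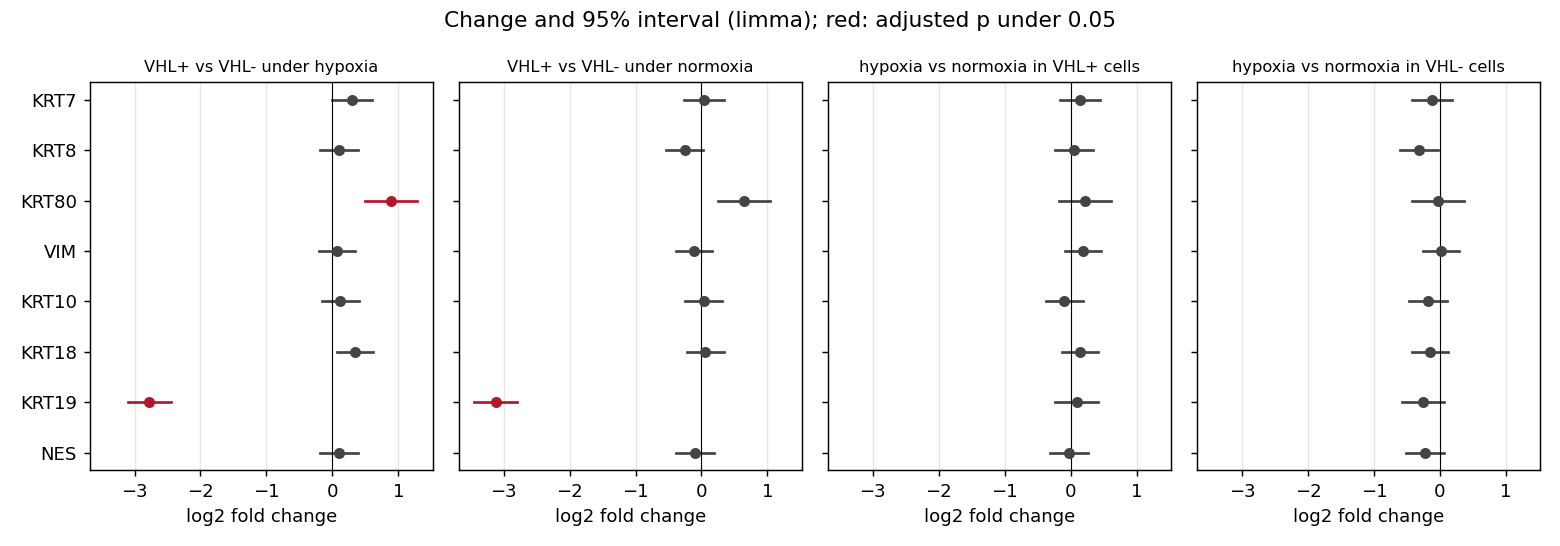
Log2 fold change (horizontal axis) of the 8 genes in 4 comparisons, with points for the estimates, lines for the 95% intervals of limma and red for an adjusted p under 0.05. KRT19 is red with VHL under both oxygen conditions (-2.78 and -3.12), KRT80 under hypoxia (0.90), and no gene is red for hypoxia vs. normoxia.

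Differences between filament genes on the same array do not move with the scaling of that array. They are given as descriptions and show unequal change only. The log2 signal of KRT8 exceeded that of its partner KRT18 by 0.81 to 0.96 on VHL+ arrays and by 1.06 to 1.31 on VHL- arrays, without overlap, and the mean difference was 0.28 smaller in VHL+ cells. KRT8 exceeded KRT19 by 4.46 to 5.01 on VHL+ arrays and by 1.77 to 1.99 on VHL- arrays. KRT7 differed from KRT19 by -0.05 to 0.23 on VHL+ arrays and by -3.21 to -2.87 on VHL- arrays. VIM exceeded KRT18 by 1.67 to 1.78 on VHL+ arrays and by 1.87 to 2.12 on VHL- arrays. A second cluster that carries the symbol KRT18 alone lay at 10.09 to 10.35 on VHL+ and 9.87 to 10.35 on VHL- arrays. With that cluster, VIM minus KRT18 overlapped between VHL+ and VHL- arrays. With the main clusters all 4 differences separated VHL+ from VHL- arrays, the 2 without KRT19 by less than 0.3 on average. The larger gaps of the 2 with KRT19 follow from the change of KRT19 itself, and the other 2 both contain KRT18. How often other pairs of genes separate in this way was not tested.

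**Figure D3:**
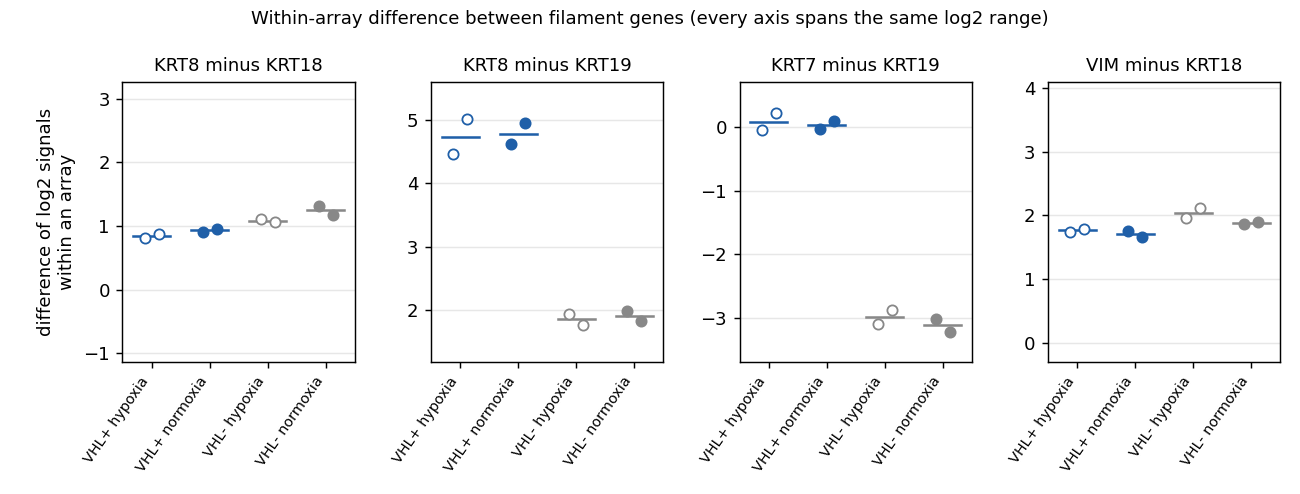
Difference of log2 signals within an array (vertical axes, each spanning the same log2 range) for KRT8 minus KRT18, KRT8 minus KRT19, KRT7 minus KRT19 and VIM minus KRT18; symbols as in the plot of levels by array, lines are means of 2 replicates. KRT8 minus KRT19 is 4.46 to 5.01 in VHL+ and 1.77 to 1.99 in VHL- cells.

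Processed copies and second clusters of the keratins were also measured. A second cluster with the symbol KRT18 had log2 fold changes of 0.32 under hypoxia (adjusted p = 0.18) and -0.08 under normoxia, and a cluster annotated with both KRT18 and MIR622 had 0.39 (adjusted p = 0.0927) and 0.03. Neither was called, as for the main KRT18 cluster. The cluster annotated with both KRT19P2 and MIR492, whose hairpin is given above, represents neither alone, and an array probe does not measure a mature microRNA. Its log2 signals were 6.09 and 5.83 in VHL+ hypoxia and 5.94 and 6.07 in VHL+ normoxia cells, against 6.20 and 6.51 in VHL- hypoxia and 6.64 and 6.48 in VHL- normoxia cells. They lay in the same direction as KRT19, without overlap between VHL+ and VHL- arrays, but with a much smaller log2 fold change of -0.48 over both conditions (SE 0.11, adjusted p = 0.00292). Under hypoxia the change was -0.39 (adjusted p = 0.104) and under normoxia -0.56 (adjusted p = 0.0358). The hypoxia change passed after quantile normalization (-0.51, adjusted p = 0.0221), after median centring (0.023) and with trend and robust estimation (0.0275). The normoxia call was lost without either VHL+ hypoxia array (adjusted p = 0.113), VHL+ normoxia replicate 1 (0.12) or either VHL- normoxia array (0.294 and 0.0593). Whether this signal comes from KRT19 transcripts that bind the probes of the copy was not tested. Single-symbol clusters of KRT8P41, KRT18P55, KRT18P59 and KRT17P5 were not called with VHL under either condition.

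The keratin genes lie in a type I and a type II cluster, so each gene was set beside the 3 measured genes on each side. The neighbours of KRT19 are all type I keratins, KRT36, KRT13, KRT15, KRT9, KRT14 and KRT16. None of these 6 was called, and their log2 fold changes over both oxygen conditions were between -0.01 and 0.14, where KRT19 had -2.95. KRT36, KRT13, KRT15 and KRT9 were dimmer than the median cluster on every array and KRT16 on most, at or below the signal KRT19 has in VHL+ cells, so that a fall of these genes could hardly have been seen. KRT80 is flanked by TAMALIN, NR4A1, ATG101, KRT7, KRT83 and KRT85, of which none was called either. The 5 that are not among the 8 genes had -0.13 to 0.13, where KRT80 had 0.77. Of 36 neighbours of the 8 genes, 5 were called higher over both conditions, TNS2 (0.35) and SPRYD3 (0.54) beyond KRT8 and KRT18, RSU1 (0.40) beside VIM, and CRABP2 (0.56) and ISG20L2 (0.60) beside NES, and none lower, where 10.6% of all clusters were called higher and 3.72% lower.

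**Figure D4:**
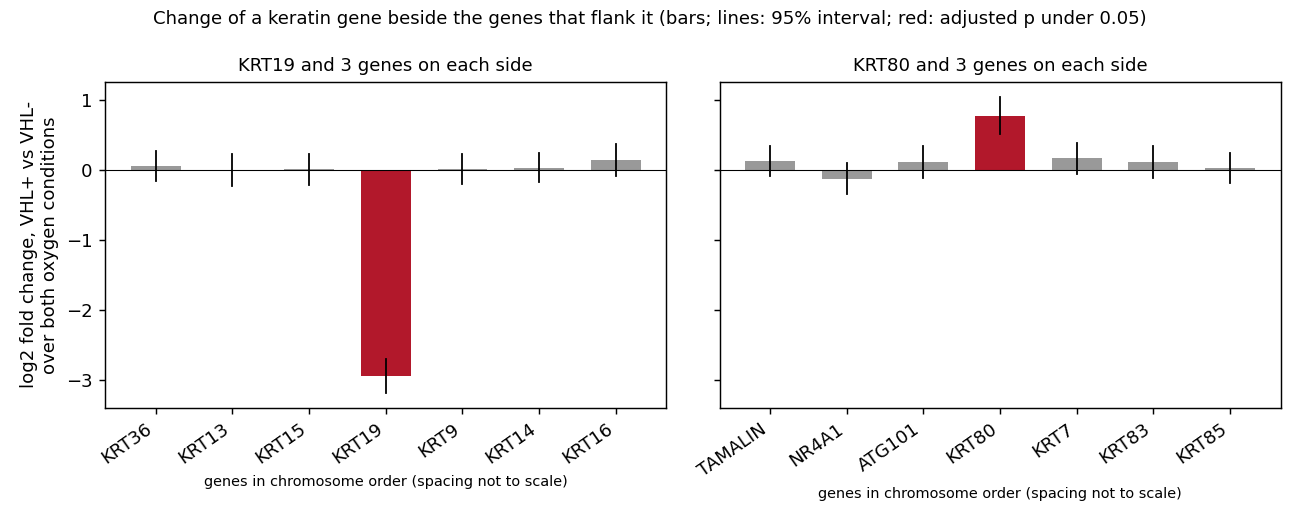
Change with VHL over both oxygen conditions (vertical axis, log2) of KRT19 and of KRT80 with the 3 measured genes on each side, in chromosome order; bars are estimates, lines 95% intervals, and red marks an adjusted p under 0.05. The neighbours of KRT19, most of them dim on all arrays, lie between -0.01 and 0.14 beside -2.95, and those of KRT80 stay grey beside 0.77.

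Genes with the most similar pattern were sought among 18409 other genes, by the root mean square difference of mean-centred log2 signals over the 8 arrays. For KRT19 these were ANPEP, the brush border aminopeptidase N of the proximal tubule (0.14), COXFA4L3 (0.226) and the mitochondrial co-chaperone gene DNAJC15 (0.31), and 19 genes lay within 0.5. ANPEP had 6.76 and 6.30 in VHL+ hypoxia and 6.46 and 6.20 in VHL+ normoxia cells, against 9.55 and 9.56 in VHL- hypoxia and 9.61 and 9.49 in VHL- normoxia cells. It is also 1 of the 9 renal markers, of which 2 were called higher and 2 lower under hypoxia, and 2 lower under normoxia. Of all clusters 10.3% were called higher and 1.31% lower under hypoxia, and 2.69% lower under normoxia. The log2 fold changes of ANPEP were -3.03 under hypoxia and -3.22 under normoxia, those of COXFA4L3 -2.58 and -2.78, and those of DNAJC15 -2.24 and -2.86. For KRT80 the nearest were HS6ST1, a heparan sulfate sulfotransferase gene (0.0671), THOC5, of the mRNA export complex (0.0721), and NXN, nucleoredoxin (0.0767). They share the wide gap between the VHL- hypoxia replicates, as THOC5 with 8.42 and 9.10. A range as small as that of KRT80 gives many close genes, and 16186 lay within 0.5 of it.

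The remaining keratins were not called with the deposited scaling. All 42 other keratin genes were measured, 36 of them were dimmer than the median cluster on every array, and only KRT14, a basal keratin, was brighter on all 8. With VHL 11.6% of all 33297 clusters were called under hypoxia and 4.77% under normoxia (7994 and 4525 at an unadjusted p under 0.05). Of the 42 keratins 0 were called under hypoxia (3 at an unadjusted p under 0.05) and 0 under normoxia (1 at an unadjusted p under 0.05). Their median log2 fold changes of 0.13 and -0.05 stood beside 0.16 and -0.04 for all clusters. KRT16, a keratin of stressed epidermis, had 0.33 (adjusted p = 0.155) and KRT33A, a hair keratin, 0.30 (adjusted p = 0.181) under hypoxia. Under normoxia KRT79 had -0.31 (adjusted p = 0.339) and KRT222 -0.25 (adjusted p = 0.595). After quantile normalization KRT79 was called lower under hypoxia (-0.40, adjusted p = 0.0479) and over both conditions (-0.33, adjusted p = 0.00867).

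Of 13 other intermediate filament genes, the B-type lamins of the nuclear lamina were called under hypoxia, LMNB1 with 0.70 (adjusted p = 0.00839) and LMNB2 with 0.57 (adjusted p = 0.0185). LMNB1 had 9.31 and 9.04 in VHL+ hypoxia against 8.40 and 8.56 in VHL- hypoxia cells. NEFL, the light neurofilament, was called lower under normoxia (-0.66, adjusted p = 0.0331), with 10.09 and 10.09 in VHL+ normoxia against 11.03 and 10.46 in VHL- normoxia cells. The median log2 fold changes of this list were 0.18 under hypoxia and -0.04 under normoxia, near those of all clusters. Of all clusters 11.6% were called under hypoxia, 4.77% under normoxia and 14.3% over both conditions. Over both conditions LMNB1 (0.56, adjusted p = 0.00117) and NEFL (-0.59, adjusted p = 0.00103) were called, and kept after quantile normalization (adjusted p = 0.00518 and 0.0168) and without any 1 array (highest 0.0493 and 0.0403). Within 1 oxygen condition all 3 calls were lost after quantile normalization (LMNB1 0.0654, LMNB2 0.0761 and NEFL 0.184 as adjusted p), where NEFL had a similar change of -0.67. Without VHL+ hypoxia replicate 1 or 2 all 3 were lost too (highest adjusted p = 0.254), as was LMNB2 without VHL- hypoxia replicate 1 (0.214) and NEFL without VHL- normoxia replicate 1 (0.627).

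Among 10 plakins and linkers, which tie filaments to each other and to membranes, FLG (filaggrin, which bundles keratin filaments in the epidermis) was called higher under both conditions and SYNC, syncoilin, lower under hypoxia (-0.61, adjusted p = 0.0221). FLG had 11.00 and 10.25 in VHL+ hypoxia and 10.18 and 10.00 in VHL+ normoxia cells, against 6.98 and 7.80 in VHL- hypoxia and 6.74 and 6.94 in VHL- normoxia cells. The gap between the cell types, 3.24 under hypoxia (adjusted p = 8.008e-08) and 3.25 under normoxia (adjusted p = 5.45e-08), runs opposite to that of KRT19. The medians of the list were 0.18 under hypoxia and -0.01 under normoxia. Among all clusters 11.6% were called under hypoxia, 4.77% under normoxia and 14.3% over both conditions. PLEC, which encodes plectin, and DSP, which encodes desmoplakin, were not called. The SYNC call was lost without either VHL+ hypoxia array or VHL- hypoxia replicate 1 (highest adjusted p = 0.225). Over both conditions SYNC had -0.54 (adjusted p = 0.0019), a call lost only without VHL+ hypoxia replicate 1. FLG kept its call without any 1 array, over both conditions and under each of them.

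Desmosomes anchor keratin filaments at cell junctions. Of 13 desmosome genes PKP2, plakophilin 2, was called higher in VHL+ cells under hypoxia (1.09, adjusted p = 0.00012) and under normoxia (0.86, adjusted p = 0.0015). It lay at 7.22 to 7.68 on VHL+ arrays and at 6.43 to 6.55 on VHL- arrays, where it was dimmer than the median cluster. It was kept without any 1 array (highest adjusted p = 0.0415). PKP4 was called under hypoxia (0.63, adjusted p = 0.0275), a call lost without either VHL+ hypoxia array or VHL- hypoxia replicate 1 (highest adjusted p = 0.387) and after quantile normalization (0.204). Over both conditions PKP4 had 0.57 (adjusted p = 0.00162), lost only without VHL+ hypoxia replicate 1 (0.0643). The medians of the list were 0.17 under hypoxia and -0.01 under normoxia. The share of all clusters called was 11.6% under hypoxia, 4.77% under normoxia and 14.3% over both conditions.

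Of 17 measured transcription factor genes known to act on keratin promoters, KLF5, a factor of proliferating epithelia, was called higher under hypoxia (0.55, adjusted p = 0.0158) and TFAP2C lower under normoxia (-0.93, adjusted p = 0.0018). TFAP2C had 5.89 and 6.20 in VHL+ normoxia against 6.79 and 7.16 in VHL- normoxia cells. Its VHL+ normoxia signals lay below the median cluster of the array. The medians of these factors were 0.16 under hypoxia and -0.12 under normoxia, where 11.6% and 4.77% of all clusters were called. Both calls were lost without either of the VHL+ hypoxia arrays (highest adjusted p = 0.207 for KLF5 and 0.0616 for TFAP2C), and that of KLF5 also without VHL- hypoxia replicate 1 (0.0968) and after quantile normalization (0.219). Over both conditions 6 of the 17 were called, where 14.3% of all clusters were (10.6% higher and 3.72% lower). KLF5 (0.37) and ETS2 (0.45) were higher, and TFAP2A (-0.32), TFAP2C (-0.69), the AP-1 genes JUN (-0.36) and FOSL1 (-0.48) lower. TFAP2C (adjusted p = 0.000225) was kept without any 1 array (highest 0.0179). The other 5 were each lost without at least 1 array, among them VHL+ hypoxia replicate 1 (highest adjusted p between 0.115 and 0.263). After quantile normalization TFAP2A and JUN were called lower under hypoxia (-0.51 and -0.51) and under normoxia (-0.36 and -0.50). Of 11 epithelial junction genes, with medians of 0.10 under hypoxia and -0.11 under normoxia, EPCAM, the epithelial adhesion molecule, fell under both conditions, by 0.77 on the log2 scale under hypoxia (adjusted p = 0.00386) and by 1.08 under normoxia (adjusted p = 0.000305). EPCAM was dimmer than the median cluster on every VHL+ array. It had 5.83 to 6.18 on VHL+ arrays against 6.71 to 7.21 on VHL- arrays, in the direction of KRT19, and the hypoxia call was lost without either VHL+ hypoxia array (adjusted p = 0.0689 and 0.111). Over both conditions 3 of the 11 were called lower, EPCAM (adjusted p = 2.042e-06), CLDN1 (0.0106) and CLDN4 (0.0369). The kidney cadherin gene CDH16 (0.00703) was the 1 called higher, where 3.72% of all clusters were called lower and 10.6% higher. All but EPCAM were lost without at least 1 array. After quantile normalization the hypoxia calls were EPCAM (-0.89, adjusted p = 0.0118) and CLDN4 (-0.42, adjusted p = 0.0295). Under hypoxia with the deposited scaling, MUC1, a membrane mucin (0.84, adjusted p = 0.000925), and CDH16 (0.61, adjusted p = 0.0199) were called higher. The MUC1 call was lost without VHL+ hypoxia replicate 2 (0.0602) and that of CDH16 without either VHL+ hypoxia array or VHL- hypoxia replicate 1 (highest adjusted p = 0.175), and both after quantile normalization (0.0653 and 0.268).

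**Figure D5:**
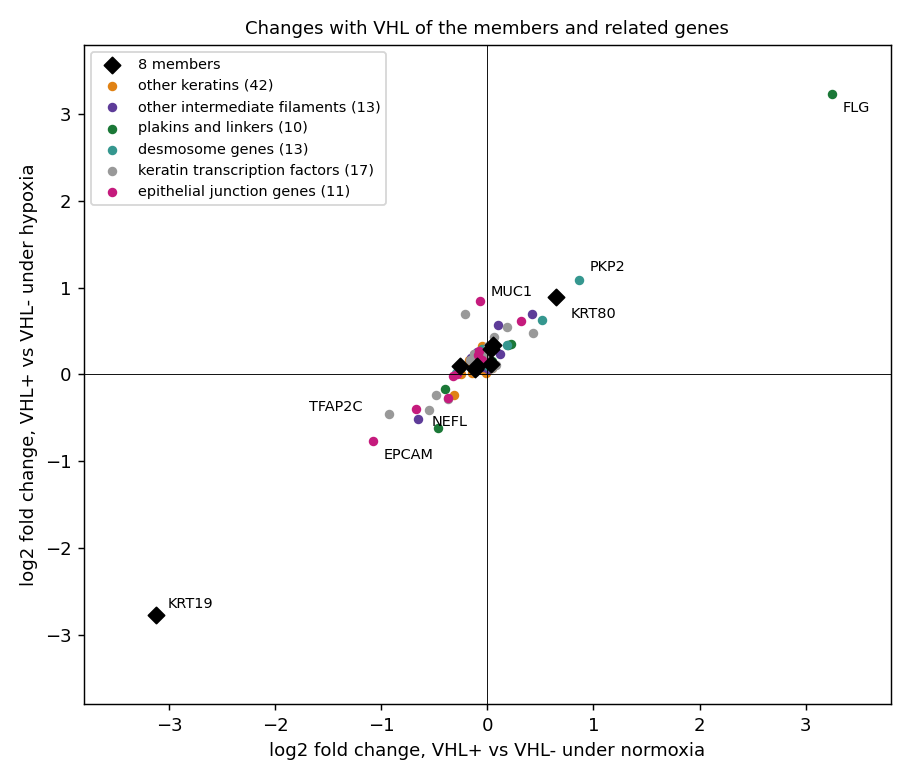
Change in VHL+ vs. VHL- cells, as log2 fold change, under hypoxia (vertical axis) and under normoxia (horizontal axis) for the 8 filament genes (black diamonds) and 6 lists of related genes (coloured points, number measured in brackets). KRT19 lies at -2.78 and -3.12, FLG at 3.24 and 3.25, and the 42 other keratins (orange) lie between -0.31 and 0.33.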

How the data were processed

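The authors hybridized cDNA, amplified from total RNA of 8 786-O cultures and then labelled, to Affymetrix Human Gene 1.0 ST arrays and normalized by RMA in Partek Genomic Suite. The values they deposited, 1 log2 signal for each transcript cluster, were used unchanged. Versions and the genome build are not given in the sources used here. Gene symbols are those of the platform annotation (19460 clusters with 1 symbol, 1754 with several, 12083 with none here). Replicates had Pearson correlations of 0.991 to 0.994 across clusters. The labels call them biological and do not say whether they come from separate transfections. The limma p-values rest on a spread between replicates that is pooled over the 4 groups and moderated by that of all clusters. They do not measure the spread of the 2 samples of 1 group alone. The number of arrays limits the precision.

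Contrasts were tested with limma 3.58.1 in R 4.3.3, in a fit with 1 mean per group over all 8 arrays (4 residual and 13.97 prior degrees of freedom), checked first on simulated data. The members and gene lists were chosen with earlier results of these data known. Named are the 8 members, VHL, up to 4 called genes of each list by adjusted p (otherwise the 2 with the smallest p), the 3 nearest profiles of each called member, and called neighbours. Related copies of keratins were named after their values were seen. Gene order is that of RefSeq. Alternatives were quantile normalization, median centring, trend and robust estimation, a replicate block and a one-way test on the groups compared. Others were a minimum change, dim clusters left out and each array left out in turn.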

Additional observations from a re-analysis of the deposited data

How the results depend on the processing

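Of the 8 genes, KRT19 and KRT80 kept their direction with VHL in all alternatives run. Under hypoxia 2 of the 8 were called, and 1 after quantile normalization, after median centring or with a minimum change of 1. The one-way test on the 2 groups compared gave 0, at an unadjusted p under 0.005 or after Benjamini-Hochberg. Under normoxia 1 was called, and 2 with trend and robust estimation or limma at an unadjusted p under 0.005, and 0 with the adjusted one-way test. Over both conditions 2 were called, and 1 with the adjusted one-way test or the minimum change. Leaving out each array, the counts were 1 to 2 under hypoxia and 1 to 2 under normoxia. An array left alone in its group was assumed to vary like the others.

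Quantile normalization gave 1 call of other keratins under hypoxia, 0 of other intermediate filaments under either condition (0 after centring), 1 of desmosome genes under hypoxia (1 after centring), and 2 and 3 of keratin transcription factors under hypoxia and normoxia. Centring gave 1 of plakins and linkers under hypoxia. Leaving out each array gave 0 to 3 and 0 to 2 calls of other intermediate filaments under hypoxia and normoxia, 1 to 2 and 1 to 2 of plakins and linkers, 1 to 2 and 1 to 2 of desmosome genes, 0 to 4 and 0 to 3 of transcription factors, and 0 to 3 and 1 to 2 of junction genes. The cause was not tested. Quantile normalization changed the calls of all clusters under hypoxia to 1831 (920 higher, 911 lower), against 3873 (3437 higher, 436 lower).

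Replicates share numbers across groups, but the labels do not say whether equal numbers pair the arrays, and the main fit used no pairing. Deviations of equally numbered arrays from their group means had correlations of 0.0503 to 0.605 between groups, highest between VHL- hypoxia and VHL- normoxia. Whether equally numbered arrays were handled together cannot be told from 2 numbers. With the replicate number as a block, 2 of the 8 genes were called under normoxia (KRT80, adjusted p = 0.00115), 2 plakins and linkers, 2 desmosome genes, 3 transcription factors and 2 junction genes under normoxia, and 5 transcription factors under hypoxia. Calls of all clusters were then 4990 under hypoxia against 3873, and 2518 under normoxia against 1587. KRT10 and NES have no value where dim clusters were left out.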

Other observations

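FLG, whose log2 signal was higher in VHL+ cells where that of KRT19 was lower, was set beside its own neighbours after its values had been seen. The 6 nearest measured genes, RPTN, TCHH, TCHHL1, FLG2, CRNN and LCE5A, belong with FLG to the epidermal differentiation genes. None was called in VHL+ vs. VHL- cells, and their log2 fold changes over both oxygen conditions were 0.01 to 0.11, against 3.24 for FLG. All 6 were dimmer than the median cluster on every array.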
